A study of Mus musculus with 12 samples.

Results

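The angiopoietin, Tie receptor and Foxo genes were examined in endothelial cells of the adult mouse cortex. They were picked by name as 6 members of 1 signalling axis: the receptors Tek and Tie1, the ligands Angpt1 and Angpt2, and the transcription factors Foxo1 and Foxo3. Each had 1 row among the 21638 genes of the count table, and all 6 had a mean of 10 counts or more, the minimum for testing, which 12577 genes reached. In 6 contrasts between the 4 genotypes no member passed an adjusted p of 0.05. Tek stood higher on average in the Hdac2 mutants and in the libraries labelled as Ezh2 mutants. Angpt1 ran higher in every Hdac2 mutant library than in any wild type library. In that contrast 37.8% of all genes tested had groups that did not overlap. A level of Angpt2 far above the other 11 libraries was held by 1 beta-catenin library.

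Tek encodes Tie2, a receptor tyrosine kinase of endothelium, and Angpt1 is its activating ligand, made in brain largely by the mural cells that wrap the vessel. Active Tie2 signals through phosphoinositide kinase and Akt, which phosphorylates Foxo factors and keeps them out of the nucleus, and this state is known for quiet, sealed vessels such as those of the blood-brain barrier. Angpt2 is released by endothelial cells from storage granules, competes with Angpt1 and is known as a target of Foxo1, while Tie1 binds no angiopoietin by itself and acts within complexes with Tie2.

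The cells were sorted for the endothelial surface protein CD31 and against CD41 and CD45, which mark platelets and leukocytes, and there were 4 groups of 3 libraries. The wild type group (WT) carried no mutant allele named in the labels. Mice of the Hdac2 ECKO group were Hdac2lox/lox:Cdh5CreERT2, those of the Ezh2 ECKO group Ezh2lox/lox:Cdh5CreERT2, and those of the beta-catenin GOF group, with constitutive activation of beta-catenin, Ctnnb1lox/lox:Cdh5CreERT2. Hdac2 is a histone deacetylase, Ezh2 the methyltransferase of Polycomb complexes, and Ctnnb1 encodes beta-catenin, the effector of canonical Wnt signalling. In these mutants a Cre recombinase driven by the endothelial Cdh5 promoter was switched on with 5 doses of tamoxifen at 75 mg/kg, and brains were taken 2 months later. Whether WT mice carried Cre or received tamoxifen is not given in the sources used here, nor whether the 3 libraries of a group came from separate animals. The p-values therefore measure only the spread between these libraries.

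Libraries held 24781070 to 36109975 counts, and levels are given as CPM, counts scaled to a common library total after TMM adjustment. Hdac2 was at 82.2, 94.9 and 112 CPM in Hdac2 ECKO against 162, 121 and 104 CPM in WT, with a log2 fold change of -0.42 (standard error 0.24, edgeR adjusted p = 0.22). In beta-catenin GOF, where Hdac2 is not targeted, it stood as low, at 88.5, 92.3 and 108 CPM. The libraries labelled Ezh2 ECKO held 9.85, 5.19 and 11.7 CPM of Ezh2 against 8.88, 2.69 and 8.68 CPM in WT, which goes against the label, and these are called the Ezh2-labelled libraries. Ctnnb1 was at 695, 575 and 478 CPM in beta-catenin GOF against 546, 607 and 809 CPM in WT, with overlapping groups. Counts over a whole gene do not resolve exons, so a deletion that leaves a transcript cannot be checked here. Nor can the activation of beta-catenin named in the label be checked from the level of Ctnnb1. The summed CPM of the endothelial markers was 12219 to 14790 in Hdac2 ECKO, below every WT library (16273 to 22068), and 15683 to 21716 in the other mutant libraries. The markers of the list did not fall together in Hdac2 ECKO. Of 10 markers 5 had a log2 fold change above 0, 1 passed as higher and 0 as lower. Their median was 0.09 against 0.10 over all genes. Over the 12 libraries astrocyte markers summed to 0.865 to 12.2, microglial to 1.49 to 8.76, neuronal to 0.157 to 3.47, fibroblast to 0.0787 to 4.71 and oligodendrocyte markers to 2.11 to 65.7 CPM. Red cell markers summed to 19608 to 33705 CPM in WT, 212 to 11718 in Hdac2 ECKO, 1455 to 3598 in the Ezh2-labelled libraries and 271 to 20822 in beta-catenin GOF, and their part in the results was not tested. Markers of pericytes and smooth muscle stood higher in Hdac2 ECKO and in beta-catenin GOF, and their values stand beside those of Angpt1. In bulk samples fewer cells of a type and less RNA per cell cannot be told apart.

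Per kilobase of gene model the members kept nearly the same order in every library. In WT the mean level per kilobase was 77.3 ± 8.64 CPM for Tek, 11.9 ± 0.945 for Tie1, 5.71 ± 1.09 for Foxo1, 2.63 ± 1.48 for Angpt2, 0.983 ± 0.0778 for Foxo3 and 0.213 ± 0.139 for Angpt1 (SD, n = 3). Tek stood above Tie1, Tie1 above Foxo1, Angpt2 above Foxo3 and Foxo3 above Angpt1 in 12 of 12 libraries. Foxo1 stood above Angpt2 in 11 of 12, and the exception was replicate 3 of beta-catenin GOF. By WT level per kilobase Tek lay at percentile 92.7 of the 12577 genes, Tie1 at 73.9, Foxo1 at 61.8, Angpt2 at 46.3, Foxo3 at 27.4 and Angpt1 at 9.57. The receptors were thus the most abundant members, and the Tie2 ligand made by mural cells the least.

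**Figure D1:**
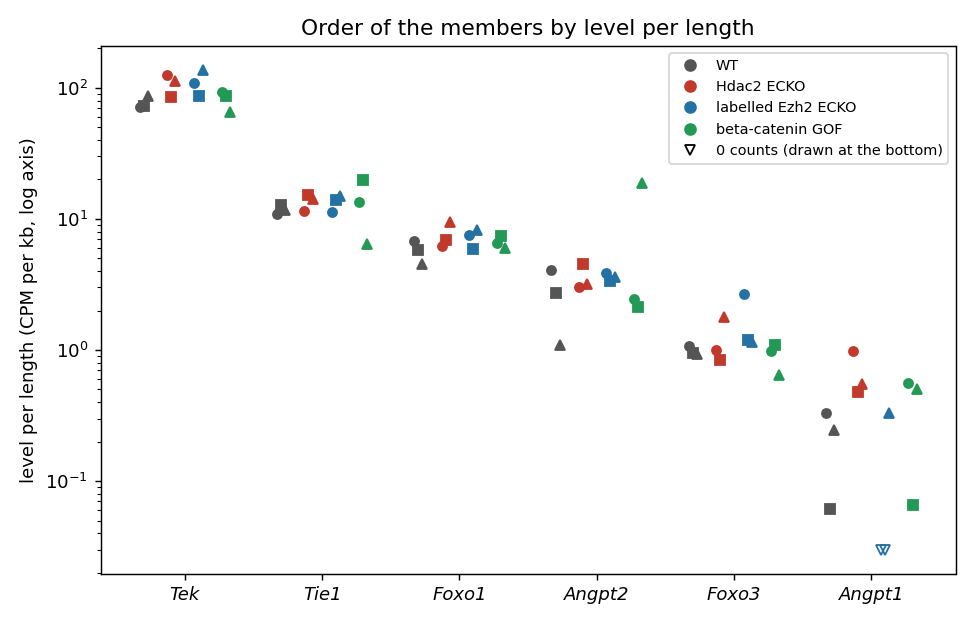
Level of each member per kilobase of gene model (CPM per kb, log axis) in each of the 12 libraries, by genotype, with members ordered by their WT mean and open triangles at the bottom for 0 counts. Points for Tek lie above those for Tie1 in every library, and the Angpt2 point of beta-catenin GOF replicate 3 lies above the Foxo1 point of that library.

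Tek (ENSMUSG00000006386.15, GRCm38 chromosome 4, 94739289 to 94874976, plus strand) is the receptor on which both ligands act. It was at 337, 345 and 411 CPM in WT. It was at 594, 400 and 535 CPM in Hdac2 ECKO and at 511, 409 and 645 CPM in the Ezh2-labelled libraries. In both of these groups replicate 2 lay below the highest WT library and the other 2 libraries lay above all of WT. The log2 fold change was 0.49 in Hdac2 ECKO (standard error 0.25, 95% interval -0.05 to 1.02, edgeR adjusted p = 0.19). It was 0.52 in the Ezh2-labelled libraries (standard error 0.25, 95% interval -0.02 to 1.06, edgeR adjusted p = 0.22). Neither difference passed the threshold. With sample quality weights, which give less weight to libraries that scatter more, both did, at 0.58 (limma adjusted p = 0.015) and 0.65 (limma adjusted p = 0.024), in fits where 42.7% and 29.8% of all genes passed. With the length and GC trend removed the value in Hdac2 ECKO was 0.28 (edgeR adjusted p = 0.45). In beta-catenin GOF Tek was at 434, 405 and 306 CPM, which lie above, within and below the WT range. The log2 fold change there was 0.07 (standard error 0.25, edgeR adjusted p = 0.99).

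Tie1 (ENSMUSG00000033191.14, chromosome 4, 118471191 to 118490061, minus strand), the orphan partner of Tie2, was at 53.9, 63.1 and 58.0 CPM in WT. It was at 56.2, 75.3 and 69.6 CPM in Hdac2 ECKO and at 55.2, 68.8 and 73.4 CPM in the Ezh2-labelled libraries, so that in each group the lowest library fell within the WT range. In beta-catenin GOF it was at 66.6, 97.5 and 31.6 CPM, which are the highest and the lowest values of all 12 libraries. The log2 fold changes were 0.20, 0.17 and 0.16 in Hdac2 ECKO, the Ezh2-labelled libraries and beta-catenin GOF (standard error 0.32 each), and none passed (edgeR adjusted p = 0.69, 0.77 and 0.97). The interval in Hdac2 ECKO ran from -0.48 to 0.88, so a moderate change in either direction was not detectable with 3 libraries a group.

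Ratios within a library do not depend on its scaling. The ratio of Tie1 to Tek per length was 0.153, 0.176 and 0.135 in WT, and 0.0907, 0.181 and 0.125 in Hdac2 ECKO. It was 0.104, 0.161 and 0.109 in the Ezh2-labelled libraries, and 0.147, 0.231 and 0.0993 in beta-catenin GOF. Tie1 thus stood well below Tek in every library. Against WT the mean log2 ratio differed by -0.28, -0.33 and -0.04 (two-sided exact permutation p = 0.5, 0.3 and 0.9, where 0.1 is the smallest p the design allows), so these differences lay within the spread between libraries. In Hdac2 ECKO the difference was -0.036 without replicate 1 and -0.53 without replicate 2.

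The RefSeq promoter table (GRCm38.p6) matched 4 of the 6 members, Tek, Tie1, Foxo1 and Foxo3. The 250 bases before the RefSeq start of Tek are shown, since Tek is the most abundant member and the window touches no annotated exon of the gene. Capitals mark GGAA or its complement TTCC, the core that ETS factors of endothelium bind.
Tek, chr4:94739039-94739288, plus strand: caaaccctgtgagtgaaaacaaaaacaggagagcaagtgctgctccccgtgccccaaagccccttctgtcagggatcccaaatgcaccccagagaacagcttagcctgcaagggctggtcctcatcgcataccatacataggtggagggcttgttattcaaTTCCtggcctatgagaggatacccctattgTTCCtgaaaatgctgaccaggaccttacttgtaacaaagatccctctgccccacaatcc
The GGAA core, searched after the sequences were seen, occurred 2 times before the start of Tek, counting both strands. It occurred 7 times in the window of Tie1, 2 times in that of Foxo1 and 1 time in that of Foxo3. Of the 250 bases, 212 in the window of Tie1 and 60 in that of Foxo3 lie in an exon of GENCODE M21, whose gene starts lie farther upstream, so these windows are not purely upstream sequence. Of 32851 promoters of the same length 93.4% held at least 1, the median was 3, and 3.82% held as many as Tie1. The forkhead motif GTAAACA, which Foxo factors bind, the TCF motifs CTTTGAT and CTTTGAA, through which beta-catenin acts, and the longer ETS motif CCGGAAGT had no match in any of the 4 windows on either strand. They occurred in 3.17%, 3.21%, 4.46% and 2.88% of all promoters, so most windows of this length lack these letters. The GC content was 51.2% for Tek, 60.4% for Tie1, 56% for Foxo1 and 76.4% for Foxo3.

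Angpt1 (ENSMUSG00000022309.9, chromosome 15, 42424723 to 42676977, minus strand) was near the limit of detection. It had 50, 10 and 36 counts in WT, which is 1.73, 0.317 and 1.28 CPM. In Hdac2 ECKO it had 136, 76 and 82 counts, or 5.15, 2.48 and 2.84 CPM, and each of these 3 values lay above all of WT. The libraries labelled Ezh2 ECKO had 0, 0 and 48 counts, and beta-catenin GOF had 2.90, 0.343 and 2.61 CPM, overlapping WT. The log2 fold change in Hdac2 ECKO was 1.65 (standard error 1.31, 95% interval -1.13 to 4.43, edgeR adjusted p = 0.39). It was -0.94 in the Ezh2-labelled libraries (standard error 1.31, edgeR adjusted p = 0.69), a value that rests on 1 library above 0, and 0.81 in beta-catenin GOF (standard error 1.29, edgeR adjusted p = 0.96). Although the groups did not overlap, as was so for 37.8% of all genes tested, the difference between Hdac2 ECKO and WT did not pass. With sample quality weights it was 2.43 (limma adjusted p = 0.042), in a fit where 42.7% of all genes passed. The edgeR value stayed between 1.21 and 2.12 without passing when each library was left out in turn. An antisense gene, Gm17473, shares 737 exon bases with Angpt1, and without stated use of strand their reads cannot be told apart.

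Mural cells, the pericytes and smooth muscle cells of the vessel wall, are a known source of Angpt1, although a sort for CD31 would leave such cells out. Their markers tended to be higher where Angpt1 was higher over the 12 libraries, but not within every group. The summed level of 12 pericyte and smooth muscle markers was 71.1 to 132 CPM in WT, 146 to 359 in Hdac2 ECKO, 64.3 to 86.3 in the Ezh2-labelled libraries and 130 to 442 in beta-catenin GOF. None of the 12 was at 0 in all libraries. In Hdac2 ECKO 5 of the 12 passed as higher, namely Rgs5, Cspg4, Myh11, Higd1b and Pdgfrb, where 480 of all 12577 genes did. Cspg4 and Pdgfrb were near the limit of detection in WT, at 0 to 5 and 2 to 16 counts. The median log2 fold change of the 12 was 1.85 against 0.10 over all genes tested. The median was 0.09 in the Ezh2-labelled libraries and 1.35 in beta-catenin GOF, where no marker passed, against 0.05 and 0.01 over all genes. Pdgfrb, the receptor that defines pericytes, was at 0.0633 to 0.555 CPM in WT and at 2.67 to 10.5 CPM in Hdac2 ECKO. Over the 12 libraries Angpt1 and the mural sum, both as log2 of CPM + 0.5, had a Pearson r of 0.68 (permutation p = 0.0163, adjusted over 16 relations 0.26) and a Spearman rho of 0.81 (permutation p = 0.00234, adjusted 0.0374). Without the 2 libraries farthest from the median mural sum r was 0.53. In WT the lowest sum, 71.1 CPM, went with the highest Angpt1, 1.73 CPM. In the Ezh2-labelled libraries the highest sum, 86.3 CPM, went with 0 counts of Angpt1. These relations were chosen after the values were seen, the 12 libraries span all 4 genotypes, and the part of mural cells in the level of Angpt1 was not tested. Markers of platelets, another known source, which the sort against CD41 would remove, summed to 14.8 to 38.6 CPM in WT and 6.26 to 47.2 CPM in Hdac2 ECKO.

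Angpt2 (ENSMUSG00000031465.6, chromosome 8, 18690263 to 18741562, minus strand), the antagonist ligand of sprouting vessels, was at 15.0, 10.1 and 4.06 CPM in WT. It was at 11.1, 16.6 and 11.9 CPM in Hdac2 ECKO and at 14.2, 12.5 and 13.3 CPM in the Ezh2-labelled libraries. In beta-catenin GOF it was at 8.97, 7.86 and 68.8 CPM. Replicates 1 and 2 of that group lay within the WT range, and replicate 3 held 2369 counts of Angpt2 and stood above every other library. The log2 fold change of 1.56 in beta-catenin GOF (standard error 0.66, 95% interval 0.15 to 2.96) did not pass (edgeR adjusted p = 0.78). Without replicate 3 it was -0.21, so the difference rests on that library. With no filter on low counts the difference passed at 1.55 (edgeR adjusted p = 0.00525), with the same library included, in a fit where 0.772% of genes passed. Angpt2 differed from WT by 0.44 in Hdac2 ECKO and 0.46 in the Ezh2-labelled libraries (standard error 0.65 each, edgeR adjusted p = 0.66 and 0.70).

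**Figure D2:**
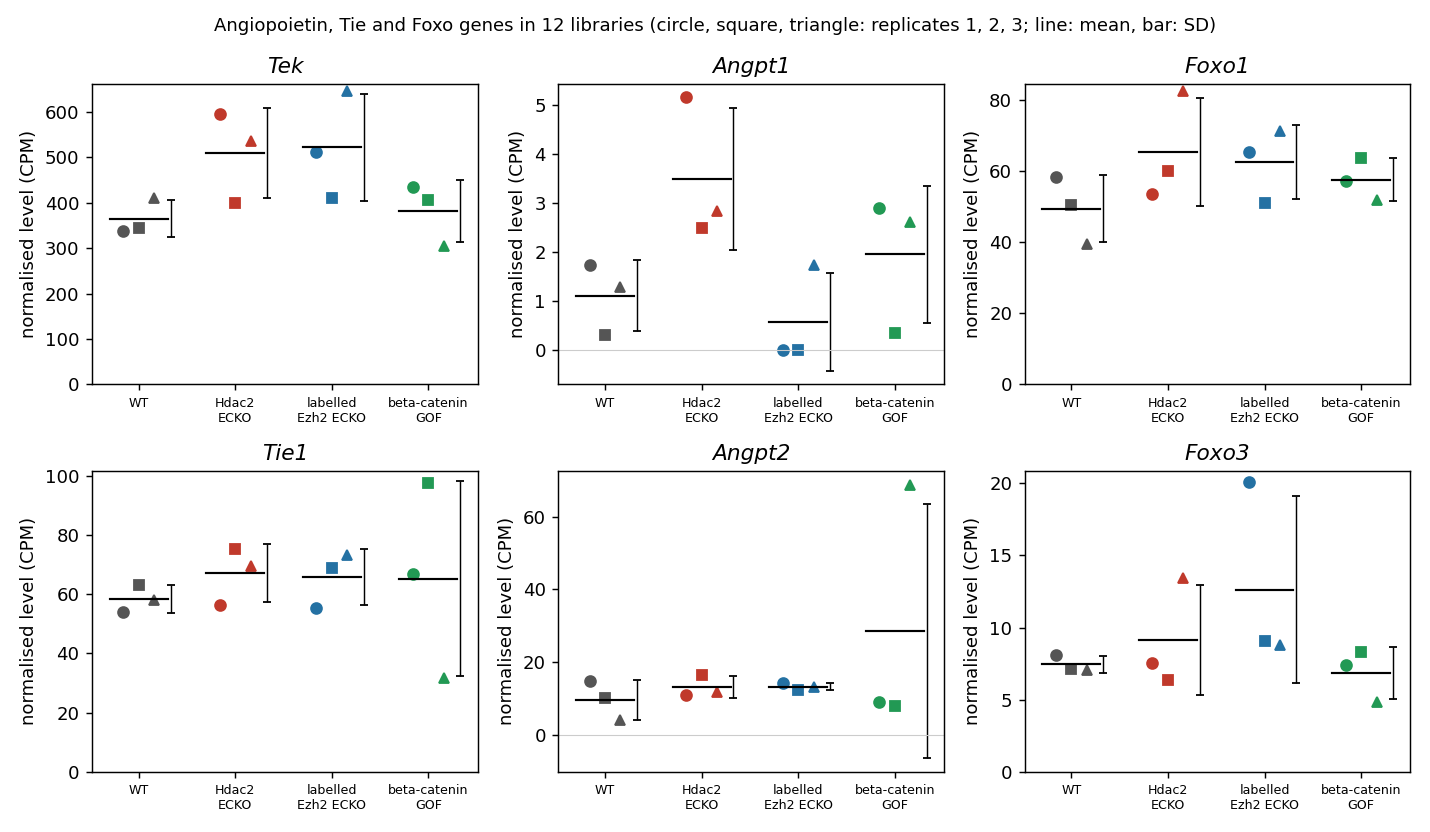
CPM of each member in each library, 1 panel per gene, with 3 points per genotype and a bar for the mean with its SD. The Angpt2 point at 68.8 CPM in beta-catenin GOF stands out. The 3 Angpt1 points of Hdac2 ECKO lie above all WT points, while the Tie1 points of the 4 genotypes overlap.

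The same library was the lowest of the 12 for Tie1, at 31.6 CPM, for Tek, at 306 CPM, and for Foxo3, at 4.85 CPM. Over all libraries log2 Tie1 and log2 Angpt2 had a Pearson r of -0.67 (permutation p = 0.0420, adjusted 0.29) and a Spearman rho of -0.30 (permutation p = 0.342, adjusted 0.60). Without replicate 3 of beta-catenin GOF r was -0.04, and without the 2 farthest libraries it was 0.24, so the relation rests on those libraries. The 2 genes whose profile over the 12 libraries was most like that of Angpt2 were Agpat5 and Nkd2 (r = 0.84 each). Agpat5, an acyltransferase gene, lies 104.714 kb from Angpt2 and was at 64.9 CPM in the same library, against 27.3 to 46.7 CPM in the other 11. Nkd2, an inhibitor of Wnt signalling, was at 6.73 CPM there and at 0.738 to 2.77 CPM elsewhere. Both genes were picked by their likeness to Angpt2, so their high levels in that library follow from the choice. Mcph1 (chromosome 8, 18595131 to 18803189, plus strand) spans Angpt2 on the opposite strand and shares 0 exon bases with it. Looked up after the values were seen, it too was highest in that library, at 8.21 CPM against 2.35 to 7.39 CPM.

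The ratio of Angpt2 to Angpt1 per length is a common index of the balance between the ligands. It was 12.0, 40.9 and 4.38 in WT, 3.04, 9.36 and 5.83 in Hdac2 ECKO, and 4.33, 30.1 and 36.7 in beta-catenin GOF, with 1 added to each count. Against WT the mean log2 ratio differed by -1.23 in Hdac2 ECKO (two-sided exact permutation p = 0.4) and by 0.39 in beta-catenin GOF (exact permutation p = 1). The former was -0.40 without WT replicate 2 and -2.01 without WT replicate 3. In the Ezh2-labelled libraries the ratio was 10.7 in replicate 3, and in the other 2 libraries, with 0 counts of Angpt1, it rests on the added count. The difference of 3.48 there (exact permutation p = 0.3) therefore has no reading as a fold. All 9 ratio tests had an adjusted p of 0.9 or more, where the smallest exact permutation p before adjustment is 0.1.

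**Figure D3:**
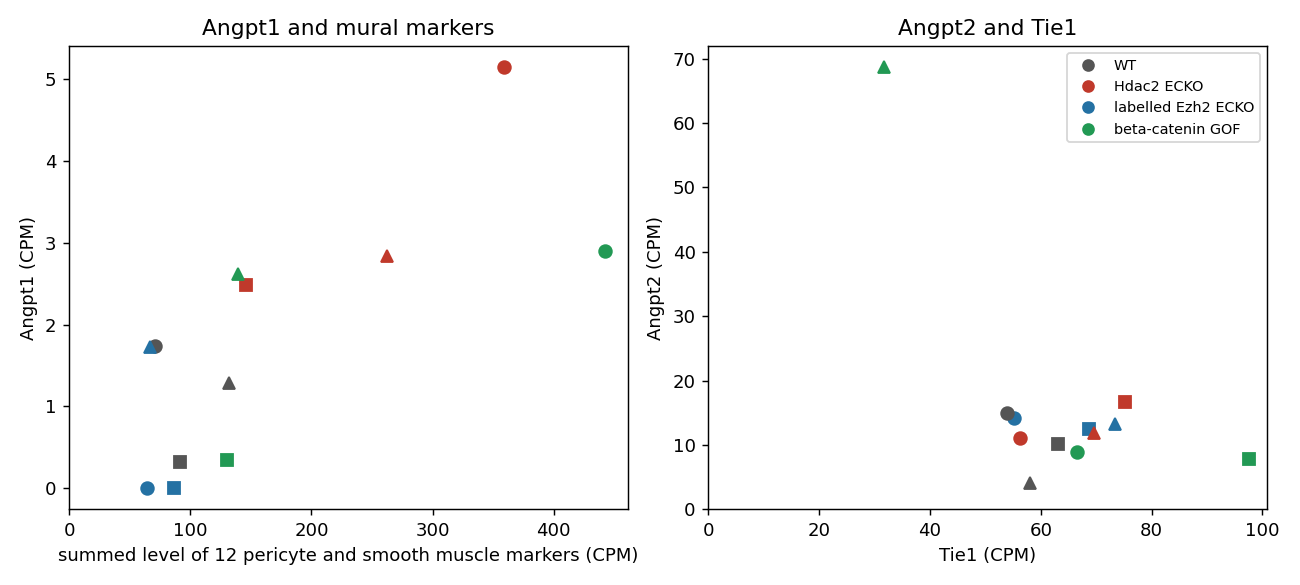
Left, Angpt1 against the summed pericyte and smooth muscle markers, both in CPM, with 1 point per library, coloured by genotype and shaped by replicate (circle 1, square 2, triangle 3). Right, Angpt2 against Tie1 in CPM, where replicate 3 of beta-catenin GOF lies apart from the other 11 points.

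Foxo1 (ENSMUSG00000044167.6, chromosome 3, 52268336 to 52353221, plus strand), the main endothelial Foxo factor and a brake on vessel growth, was at 58.4, 50.6 and 39.5 CPM in WT. It was at 53.5, 60.0 and 82.6 CPM in Hdac2 ECKO, at 65.5, 51.2 and 71.3 CPM in the Ezh2-labelled libraries, and at 57.2, 63.9 and 52.0 CPM in beta-catenin GOF. Each mutant group overlapped WT. The log2 fold changes were 0.40, 0.34 and 0.22 (standard error 0.25 each), and none passed (edgeR adjusted p = 0.27, 0.41 and 0.94). In Hdac2 ECKO the value passed at 0.53 with sample quality weights (limma adjusted p = 0.037), where 42.7% of all genes passed. It was -0.21 once a trend of fold change with gene length and GC content was removed. An antisense gene, Gm20402, shares 674 exon bases with Foxo1, and reads of the pair cannot be told apart.

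Foxo3 (ENSMUSG00000048756.11, chromosome 10, 42181841 to 42276755, minus strand), the related factor, was at 8.12, 7.15 and 7.05 CPM in WT and at 20.1, 9.05 and 8.76 CPM in the Ezh2-labelled libraries. All 3 of the latter lay above WT, in a contrast where 22% of all genes tested had groups that did not overlap. Replicate 1 stood apart from the other 2. The log2 fold change was 0.76 (standard error 0.40, 95% interval -0.08 to 1.61, edgeR adjusted p = 0.24), and with single libraries left out it ranged from 0.24 to 0.96 without passing. Foxo3 was at 7.57, 6.36 and 13.4 CPM in Hdac2 ECKO, with a log2 fold change of 0.29 (standard error 0.40, edgeR adjusted p = 0.63), and without replicate 3 the value was -0.11. In beta-catenin GOF it was at 7.43, 8.33 and 4.85 CPM, with a log2 fold change of -0.11 (standard error 0.40, edgeR adjusted p = 0.98).

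The ratio of Foxo1 to Foxo3 per length was 6.26, 6.15 and 4.88 in WT and 6.70, 6.68 and 9.31 in beta-catenin GOF. All 3 beta-catenin GOF libraries had the higher ratio, a log2 difference of 0.38. The two-sided exact permutation p of 0.1 is the smallest that 3 libraries against 3 can give. Adjusted over the 9 ratio tests this exact permutation p was 0.9, so the difference did not pass. The ratio was 6.15, 8.21 and 5.35 in Hdac2 ECKO (log2 difference 0.17, exact permutation p = 0.6) and 2.85, 4.93 and 7.08 in the Ezh2-labelled libraries (log2 difference -0.31, exact permutation p = 0.7). Foxo1 exceeded Foxo3 in every library.

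Read together, 0 of the 6 members passed in any contrast, and the shares of all 12577 genes that passed set the background. In Hdac2 ECKO against WT 9.2% of genes passed, 33.1% had an unadjusted p under 0.05 and 37.8% had groups that did not overlap, where 1 member, Angpt1, did not overlap. In the Ezh2-labelled libraries against WT these shares were 1.03%, 24.7% and 22%, and 1 member, Foxo3, did not overlap. In beta-catenin GOF against WT 0% passed, 6.06% had an unadjusted p under 0.05, among them 1 member, Angpt2, and 12.7% did not overlap, none of them a member. For that contrast edgeR gave 0 genes past the adjusted threshold and 762 with an unadjusted p under 0.05, and DESeq2 gave 38 past the adjusted threshold. In Hdac2 ECKO and in the Ezh2-labelled libraries, 1 member of 6 is a smaller share than the share of all genes whose groups did not overlap.

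The directions of the members were counted without a test. In Hdac2 ECKO 6 of 6 log2 fold changes were above 0, as were 54.0% of all genes, with a median of 0.42 against 0.10 over all genes. With the length and GC trend removed 4 of 6 were above 0. In the Ezh2-labelled libraries 5 of 6 were above 0, as were 52.6% of all genes, with a median of 0.40 against 0.05, and Angpt1 was the exception. In beta-catenin GOF 5 of 6 were above 0, as were 51.1% of all genes, with a median of 0.19 against 0.01, and Foxo3 was the exception. The 3 contrasts share the WT libraries, so these values are given side by side only.

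**Figure D4:**
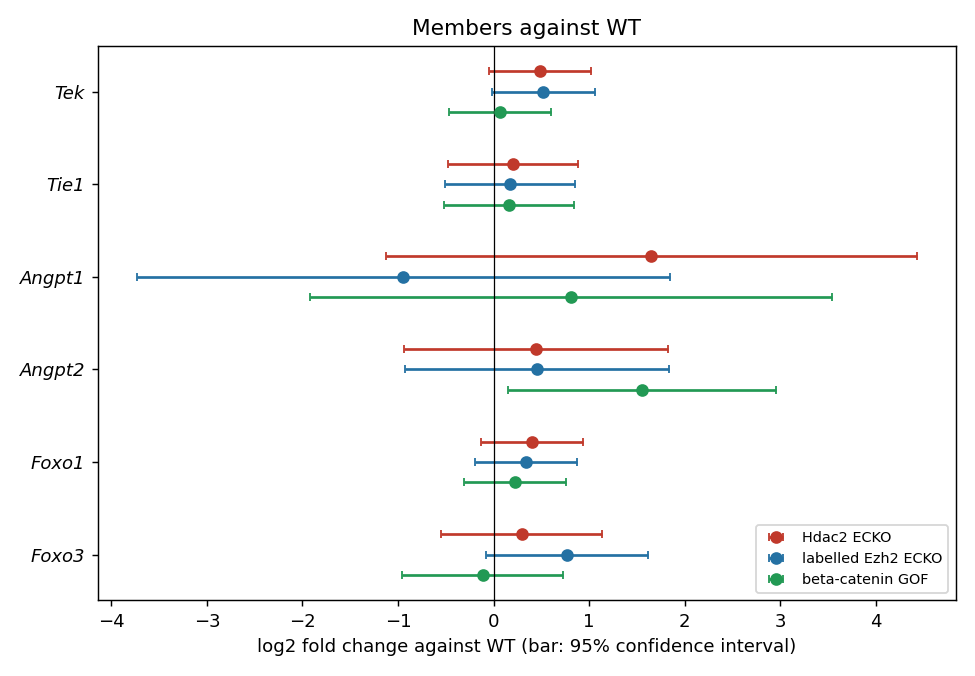
Log2 fold change of each member against WT in Hdac2 ECKO, the Ezh2-labelled libraries and beta-catenin GOF, with 95% intervals from edgeR. The interval of Angpt2 in beta-catenin GOF alone lies above 0, from 0.15 to 2.96, and its adjusted p of 0.78 did not pass.

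Between the mutants no member passed either. In Hdac2 ECKO against the Ezh2-labelled libraries 0.0239% of all genes passed, 8.19% had an unadjusted p under 0.05 and 13.2% did not overlap. Angpt1 was the 1 member that did not overlap there, with a log2 fold change of 2.59 (standard error 1.36, edgeR adjusted p = 0.63). In beta-catenin GOF against Hdac2 ECKO 0.0716% passed, 21.1% had an unadjusted p under 0.05 and 32% did not overlap, but no member did either. Angpt2 was higher there by a log2 fold change of 1.11 (standard error 0.65, edgeR adjusted p = 0.33), which became -0.65 without replicate 3 of beta-catenin GOF. With no filter it passed at 1.13 (edgeR adjusted p = 0.045), where 4.81% of genes did. In beta-catenin GOF against the Ezh2-labelled libraries 0.0636% passed, 13.2% had an unadjusted p under 0.05 and 16.7% did not overlap. Foxo3 was the member in both of the latter counts, with a log2 fold change of -0.88 (standard error 0.40, edgeR adjusted p = 0.37).

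Beyond the members, 24 ligands and signalling partners of the Tie receptors were followed, of which 20 reached the count minimum. In Hdac2 ECKO 1 passed as higher and 1 as lower, a share near the 9.2% of all genes that passed. The list had a median of 0.31 (log2 fold change) against 0.10 over all genes. Ptpn11, the phosphatase Shp2 that docks on Tie2, rose from 18.0 to 38.7 CPM (log2 fold change 1.10, standard error 0.27, edgeR adjusted p = 0.035). Mapk3, the kinase Erk1, fell from 75.0 to 28.1 CPM (log2 fold change -1.42, standard error 0.35, edgeR adjusted p = 0.036). In the Ezh2-labelled libraries 1 passed, the adaptor gene Grb2, which fell from 39.3 to 17.1 CPM (log2 fold change -1.21, standard error 0.27, edgeR adjusted p = 0.048). In beta-catenin GOF 0 of 20 passed and the median was -0.01. Ptprb, the phosphatase VE-PTP that silences Tie2, was at 458 to 703 CPM in WT and 790 to 1133 CPM in Hdac2 ECKO (log2 fold change 0.78, standard error 0.29, edgeR adjusted p = 0.084). The groups did not overlap, as was so for 37.8% of all genes tested. Of the further ligands, Angpt4 was at or under 0.185 CPM in all libraries, and Svep1, a ligand of Tie1, was at or under 0.624 CPM.

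Of 17 other Foxo factors and regulators of Foxo, 16 were tested. In Hdac2 ECKO 0 passed as higher and 3 as lower, where 480 and 677 of all 12577 genes did, and the median log2 fold change was -0.05. The 3 were Ywhaz (log2 fold change -1.34), Ywhae (-1.25) and Ywhaq (-0.94), with edgeR adjusted p values of 0.034, 0.036 and 0.047. They encode adaptor proteins that hold phosphorylated Foxo factors in the cytoplasm. None of the 16 passed in the Ezh2-labelled libraries, where the median was 0.05, or in beta-catenin GOF, where it was -0.08.

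All 21 genes listed as targets of Foxo were tested, and in Hdac2 ECKO 3 passed as higher and 1 as lower, where 9.2% of all genes passed in either direction. The 3 higher genes include Irs2, from whose call nothing is read. The median of the targets, with Irs2 included, was 0.29 against 0.10 over all genes. Insr, the insulin receptor, rose from 72.4 to 158 CPM (log2 fold change 1.13, standard error 0.26, edgeR adjusted p = 0.034). Sesn3, a stress-induced regulator of growth signalling, rose from 10.0 to 25.4 CPM (log2 fold change 1.34, standard error 0.36, edgeR adjusted p = 0.040). Irs2, an adaptor of the insulin receptor, was the third and had 0 counts in all WT libraries and 114, 0 and 28 counts in Hdac2 ECKO. It reached the count minimum only through the mutant libraries, so nothing is read from its call. Its mean was at least 17.3-fold higher than a floor of 3 counts per WT library. Without replicate 1 of Hdac2 ECKO it was at least 4.76-fold higher and no longer reached the minimum. In beta-catenin GOF Irs2 had 46, 6 and 16 counts, a mean at least 7.17-fold above that floor. Counts above WT were thus not particular to Hdac2 ECKO, and these bounds are a description only.

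Cdkn1a, the cell cycle inhibitor p21, went the other way. It was at 207, 168 and 111 CPM in WT and at 32.5, 34.6 and 40.1 CPM in Hdac2 ECKO, with a log2 fold change of -2.18 (standard error 0.32, edgeR adjusted p = 0.032). The list thus held changes in both directions. Against the Hdac2 ECKO libraries Cdkn1a was also higher in beta-catenin GOF, at 131, 122 and 126 CPM (log2 fold change 1.82, standard error 0.32, edgeR adjusted p = 0.048). None of the 21 passed in the Ezh2-labelled libraries or in beta-catenin GOF against WT, where the medians were 0.05 and -0.10.

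The list calls changed when libraries were left out and when length and GC content were corrected for together. With 1 library left out at a time each of Ptpn11, Mapk3, Insr, Cdkn1a, Ywhaz and Ywhae in Hdac2 ECKO, and Grb2 in the Ezh2-labelled libraries, passed in 2 of 6 fits, Sesn3 and Ywhaq in 1 of 6 and Irs2 in 1 of 5, with no change of direction. Cdkn1a in beta-catenin GOF against Hdac2 ECKO passed in 1 of 6, and missed with the length and GC trend removed (edgeR adjusted p = 0.064). Over all genes, Hdac2 ECKO against WT gave 0, 0 and 1868 calls without WT replicates 1, 2 and 3. It gave 1, 2220 and 0 without Hdac2 ECKO replicates 1, 2 and 3. For the Ezh2-labelled libraries against WT the same fits gave 2, 2 and 1138, then 4, 2328 and 7. Hardly any gene passed in most of these fits, so the losses are not particular to the listed genes. With the length and GC trend removed, Insr was at 0.29 (edgeR adjusted p = 0.32) and Sesn3 at 0.43 (edgeR adjusted p = 0.35), and Cdkn1a still passed at -1.94 (edgeR adjusted p = 0.014). Ptpn11 at 0.68, Ywhaq at -0.78 and Grb2 at -0.81 did not (edgeR adjusted p = 0.068, 0.070 and 0.055). Scaling by library size alone also ended the calls of Ywhaq and Grb2 (edgeR adjusted p = 0.071 and 0.053), and Grb2 missed with median-ratio scaling and with only the 2 groups fitted (0.051 and 0.12).

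**Figure D5:**
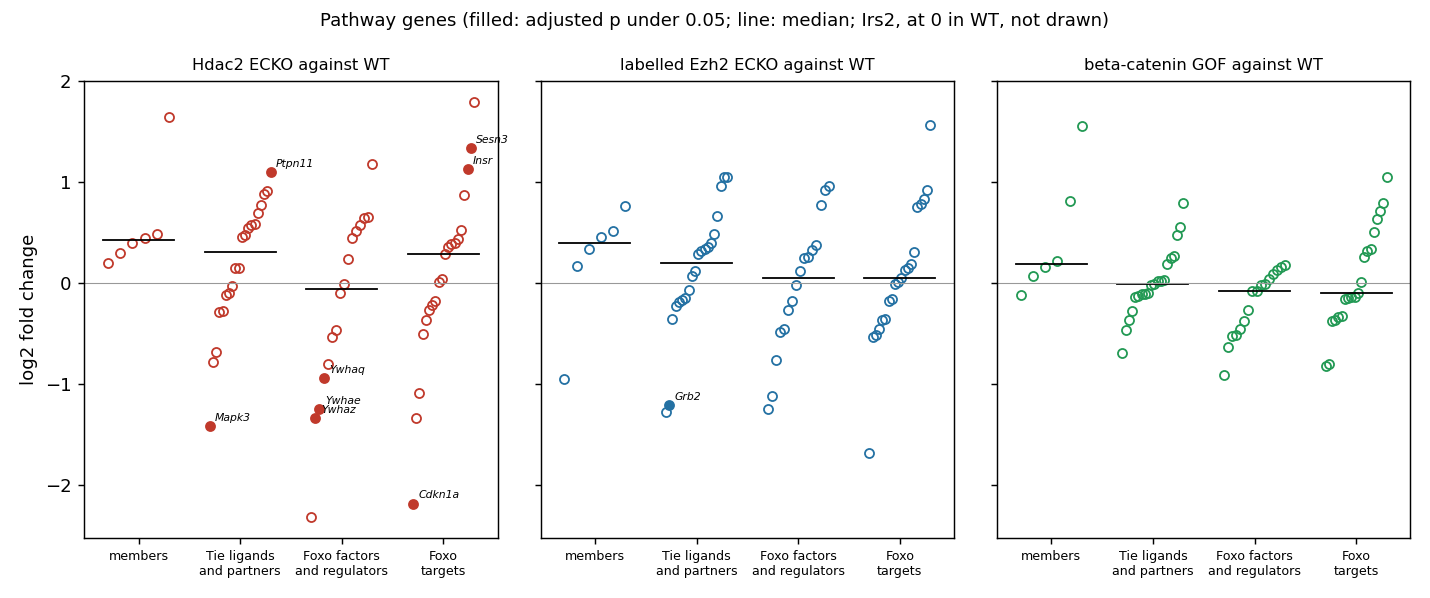
Log2 fold change against WT of the tested genes of the members and the 3 pathway lists (Tie ligands and partners, Foxo factors and regulators, Foxo targets) in the 3 mutant groups, with filled points for genes past an edgeR adjusted p of 0.05 and a line at the median of each list. Filled points occur in both directions in Hdac2 ECKO, and Irs2, with 0 counts in WT, is not drawn as a point.

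The genes whose profiles over the 12 libraries were most like those of the members were named as the 3 with the highest Pearson r of log2 CPM. For Tek these were Kdm6a, Adam10 and Cpeb4 (r = 0.96 each), and for Tie1 they were Grasp, Psap and Gigyf1 (r = 0.89, 0.84 and 0.82). Angpt1 was most like Zfp28, Nupr1 and Pggt1b (r = 0.86, 0.84 and 0.83), and Angpt2, after Agpat5 and Nkd2, most like Cyp51 (r = 0.84). Foxo1 was most like Zcchc8, Nipal3 and Ubap2 (r = 0.91, 0.91 and 0.88), and Foxo3 most like Tubgcp3, Cdkl2 and Tnrc18 (r = 0.90, 0.85 and 0.85). Each member was compared with 10814 genes, and these r values are the highest among them. No member was among the 3 most like another, from which little can be read with so many genes compared. Between members the highest positive correlation was that of Foxo1 and Foxo3, with a Pearson r of 0.56 (permutation p = 0.0663, adjusted 0.29) and a Spearman rho of 0.60 (permutation p = 0.0432, adjusted 0.32), and without the 2 farthest libraries r was 0.49.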

How the data were processed

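The deposited table gives 1 value per gene and library for 21638 genes, with 0 sample columns left unmapped. Its title calls the values normalized, but the deposited values are whole-number counts with different totals. Even numbers made up 79.5% to 84% of values between 10 and 50, and 59.4% to 67.1% of values between 300 and 1000, a pattern that counting each mate leaves. The values were treated as raw counts of mates, and the plan for normalized values was replaced by a count test. The submitters' processing notes name FastQC, cutadapt, STAR, featureCounts, DESeq2 and mm10; their roles, versions and the use of strand are not given in the sources used here. Gene positions matched GENCODE M21 (GRCm38) for 99.1% of genes, and coordinates are counted from 1.

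The main test was edgeR 4.0.16 (R 4.3.3), a quasi-likelihood F test with TMM scaling in 1 model over all 12 libraries, for genes averaging 10 counts or more, with Benjamini-Hochberg adjustment within each contrast and a threshold of 0.05. Standard errors come from the F statistic. Intervals and the floor of 3 counts (0.0791 to 0.118 TMM-adjusted CPM per library) cover counting error or the spread between libraries only, and reads carry no molecular identifiers. Alternatives were DESeq2 1.42.0, limma 3.58.1 with sample quality weights, other scalings and filters, a replicate block, removal of a length and GC trend (a spline with 5 degrees of freedom) and leaving out each library. The scripts were tested on simulated data. Correlations used log2 of CPM + 0.5 and 100000 resamples.

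The replicate numbers in the titles are not said to mark a shared batch. Deviations from the group means correlated between same-numbered libraries of Hdac2 ECKO and the Ezh2-labelled libraries (r = 0.20, 0.44 and 0.15), and in no other contrast did every pair exceed 0.1.

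The members and the gene lists were chosen with earlier results of these data known. Named genes were the members, list genes past the threshold, the targeted genes and the 3 genes most like each member; the relations between members, the GGAA core and Mcph1 were chosen after values were seen, as was Ptprb.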

Additional observations from a re-analysis of the deposited data

Results flagged for a closer look

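Cdkn1a, listed among the targets of Foxo, differed between 2 mutants, with a log2 fold change of 1.82 in beta-catenin GOF against Hdac2 ECKO (standard error 0.32, edgeR adjusted p = 0.048, all 3 libraries higher). The call was lost in 8 of 15 alternatives, among them median-ratio scaling, library size alone and the length and GC correction (edgeR adjusted p = 0.055, 0.070 and 0.064) and 5 of 6 fits that left out 1 library. Groups of 3 libraries were not screened for outlying libraries, so the Angpt2 level of 68.8 CPM in 1 beta-catenin GOF library was not tested.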

How the results depend on the processing

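Over 90 alternatives of the 6 contrasts, 86 gave 0 members past the threshold. Of the other 4, 2 used sample quality weights. In Hdac2 ECKO against WT 3 members passed (Tek, Foxo1 and Angpt1), where 42.7% of all genes did. In the Ezh2-labelled libraries against WT 1 member passed (Tek), where 29.8% of all genes did. The remaining 2 had no filter on low counts, in beta-catenin GOF against WT and against Hdac2 ECKO. Angpt2 passed in each, where 0.772% and 4.81% of genes did. Directions turned for Tek in beta-catenin GOF against WT (-0.034 to 0.21 with single libraries left out), Tie1 (-0.25 to 0.49), Angpt2 (-0.21 to 2.01) and Foxo3 (-0.28 to 0.084), for Foxo3 in Hdac2 ECKO (-0.11 to 0.45), and for Angpt2 against Hdac2 ECKO (-0.65 to 1.56). With the length and GC trend removed, Foxo1 and Foxo3 in Hdac2 ECKO were at -0.21 and -0.030. With single libraries left out, the ratio of Tie1 to Tek in beta-catenin GOF ranged from -0.35 to 0.26, that of Angpt2 to Angpt1 from -0.39 to 1.37, and that of Foxo1 to Foxo3 in the Ezh2-labelled libraries from -0.61 to 0.045. The cause was not tested. Genes past the threshold numbered 1157 in Hdac2 ECKO, 129 in the Ezh2-labelled libraries and 0 in beta-catenin GOF against WT, then 3, 9 and 8 for Hdac2 ECKO against the Ezh2-labelled libraries and for beta-catenin GOF against each of these. In that order DESeq2 gave 2553, 1280, 38, 98, 621 and 144, no filter gave 2279, 1367, 157, 199, 978 and 359, and quality weights gave 5374, 3743, 26, 11, 3339 and 1462. Scaling by library size alone gave 1819, 30, 0, 2, 4 and 14 and moved the median of all genes in Hdac2 ECKO from 0.10 to 0.34. Length and GC correction gave 976, 341, 0, 3, 1 and 13, and single libraries left out gave 0 to 2220, 2 to 2328, 0 to 4, 1 to 3, 0 to 541 and 1 to 731. For the Ezh2-labelled libraries against WT, median-ratio scaling gave 76, a mean count of at least 50 gave 219 and a fit of only the 2 groups gave 17. A fit with the replicate block gave 1832, 536, 0, 3, 13 and 13 genes and 0 members in every contrast. Angpt1 had 10 to 136 counts where it was detected. Its counts did not follow the library totals in the Ezh2-labelled libraries. Replicates 1 and 2 had 0 counts at totals of 30880870 and 30877689, and replicate 3 had 48 at a total of 26194646. What limits its detection was not tested.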

Other observations

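Angpt2 and its neighbours Agpat5 and Mcph1 on chromosome 8 were each highest in the same 1 of the 12 libraries, replicate 3 of beta-catenin GOF. Angpt2 was at 68.8 CPM there against 4.06 to 16.6 CPM elsewhere, and Agpat5 at 64.9 CPM against 27.3 to 46.7 CPM. Mcph1, at 8.21 CPM against 2.35 to 7.39 CPM elsewhere, was only slightly above the next library. Agpat5 was picked for its likeness to Angpt2 over these libraries, and Mcph1 was looked up after the values were seen. Angpt2 lies within Mcph1 on the opposite strand, and the use of strand in counting is not given, so how reads of unspliced Mcph1 over Angpt2 exons were assigned is not known here.

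Nkd2, a feedback inhibitor of Wnt signalling, was at 6.73 CPM in that library, while replicates 1 and 2 of beta-catenin GOF were at 1.30 and 0.738 CPM, within or below the WT values of 2.29, 1.01 and 1.07 CPM. Replicate 3 of beta-catenin GOF differed from the other 2 libraries of its group in both Angpt2 and Nkd2. Since Nkd2 was picked for its likeness to Angpt2 over these libraries, its level there is not a separate result.

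Replicate 2 of Hdac2 ECKO, at 400 CPM of Tek, and replicate 2 of the Ezh2-labelled libraries, at 409 CPM, were the lowest of their groups for Tek. The same 2 libraries were also the lowest of their groups for Ctnnb1, at 844 and 753 CPM against 1302 and 1324 and against 1303 and 1248 CPM in the other libraries. They were the lowest for Ptprb, Insr, Cdh5 and Ptpn11 too, and the highest for Cldn5 and Ywhaq. Their deviations from the group means correlated over genes (r = 0.44), so the pattern is not particular to Tek and Ctnnb1.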
